A study of Mus musculus with 2 samples.

Results

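Interleukin-15 keeps natural killer (NK) cells alive through its receptor, JAK kinases and STAT transcription factors. Examined here for binding of Aiolos, the Ikaros family zinc finger protein encoded by Ikzf3, were 10 genes for receptor chains, JAKs, STATs and targets. Not all are particular to interleukin-15, since Stat3 and Stat4 also serve other cytokines. The 10 genes were given by name, and a peak belonged to a gene when the authors' annotation of the peak carried its symbol. Of these 10 genes, 4 had an assigned peak, with 6 peaks in all out of 1404 in the list. Il2rb, Stat4, Stat3 and Pim1 had peaks, and Il2rg, Jak1, Jak3, Stat5a, Stat5b and Cish had none. Among all 21900 protein-coding genes, 5.38% had an assigned peak.

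The study profiled chromatin by CUT&RUN, in which micrococcal nuclease joined to protein A is directed by an antibody, so that DNA around the bound target is cut out and sequenced. There were 2 libraries from cultured mouse spleen NK cells: 1 with an antibody against Aiolos and 1 with no primary antibody. Both came from cells grown in complete IMDM with 50 ng/ml interleukin-15, with at least 500000 cells per sample. Every value therefore describes cells under this cytokine, and no library without it was analysed here. The labels give no strain, age, sex, genotype or number of mice, and peak positions alone do not show whether the cells carried NK markers. Neither group was replicated, so no value has a replicate error. Each fold enrichment, q and gene assignment is the authors' own value for the peak. Each fold has a 95% exact Poisson interval, based on tags at the summit as recovered from the authors' values, which covers counting error only.

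As background, the interleukin-15 receptor on NK cells signals through the beta chain CD122 and the common gamma chain, encoded by Il2rb and Il2rg. The kinase JAK1 is bound to the beta chain and JAK3 to the gamma chain. Once activated, they phosphorylate STAT transcription factors, chiefly STAT5A and STAT5B, which enter the nucleus and switch on genes for survival, growth and cytotoxicity. Pim1 and Cish are known STAT5 targets: PIM1 is a kinase that promotes survival, while CIS, the product of Cish, dampens the same receptor. STAT3 is shared with many other cytokines, and STAT4 is best known as the transducer of interleukin-12 in NK cells.

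The receptor genes differed in that a peak was assigned to Il2rb and none to Il2rg. The Il2rb peak had the highest fold enrichment of the 6, 7.33 (95% counting interval 3.75 to 13.3, from 9 tags over a background of 0.364 tags), and a -log10 q of 6.65. The counting intervals of all 6 peaks overlapped, so their order in strength was not resolved at this depth. It was 419 bp wide and lay on chromosome 15 at 78510255 to 78510673 (mm10). The authors classed it as distal intergenic, with its edge 14984 bp before the first base of the transcript they assigned. The RefSeq gene table of the same assembly places Il2rb at 78479256 to 78511621, which includes the peak. Measured against that longer gene, the summit was 1.23 kb inside the upstream end. Whether this peak was intergenic or inside the gene depended on the gene model. The nearest other protein-coding gene, C1qtnf6, was 12.7 kb away, and no other peak lay within 100 kb of Il2rb.

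Il2rg had no assigned peak, and the nearest peak on the X chromosome, at Rpl10, was 26994 kb away. Peaks were sparse on the whole chromosome: X carried 14 of the 1404 peaks, and 13 of its 966 protein-coding genes had an assigned peak. The median X gene was 2.26 Mb from a peak.

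Neither kinase gene had an assigned peak. Jak3, on chromosome 8 at 71676383 to 71690577, was 305 kb from the nearest peak, a promoter peak of Ocel1 with a fold enrichment of 5.53. Jak1 extended over 113 kb on chromosome 4, and the nearest peak, at the Efcab7 promoter, was 1.32 Mb away. No peak lay within 1 Mb of Jak1, while 7 lay within 1 Mb of Jak3. For comparison, the median protein-coding gene was 404 kb from its nearest peak, with quartiles at 95.3 and 1318 kb, so Jak3 lay between these quartiles and Jak1, at 1322 kb, just beyond the upper one.

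**Figure D1:**
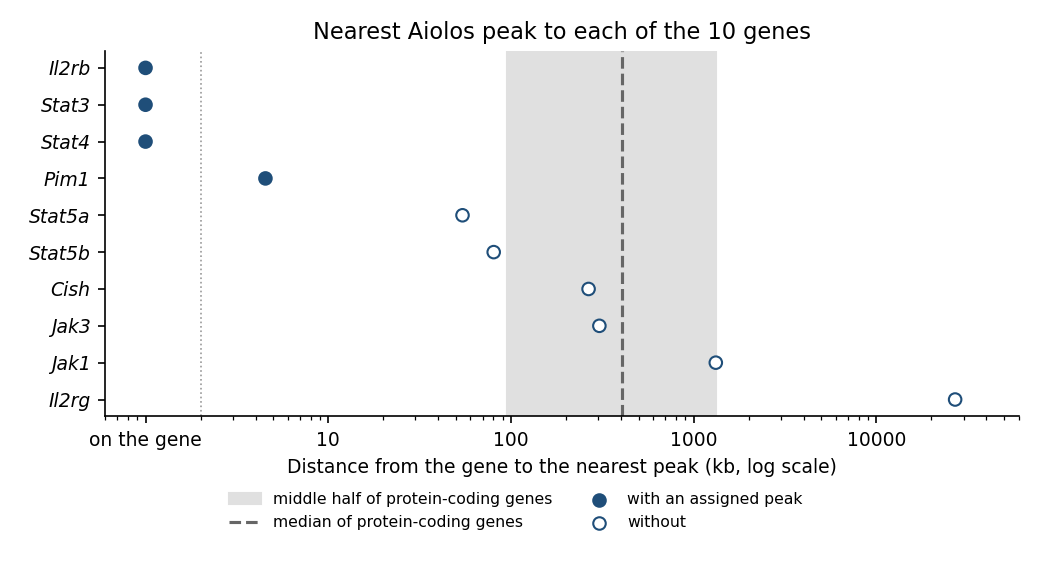
Distance in kb (log axis) from each of the 10 genes, as placed in the RefSeq table, to the nearest of the 1404 peaks, whatever gene that peak was assigned to. Il2rb, Stat3 and Stat4 overlapped a peak and are drawn left of the dotted line; Stat5a and Stat5b lay 54.3 and 80.5 kb from the Stat3 peak, and Il2rg was farthest at 26994 kb.

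Of the STAT genes, Stat4 carried the most peaks. All 3 lay in its introns, on chromosome 1, and their summits spanned 22.9 kb of a gene of 120084 bp. The first, at 52012178 to 52012467, was in intron 3 of 24 with a fold enrichment of 7.17 (3.55 to 13.4, 8 tags). The second, at 52019637 to 52020146, was in intron 4 with 5.68-fold (2.81 to 10.6, 8 tags), and the third, at 52035277 to 52035739, was in the same intron with 6.31-fold (3.23 to 11.4, 9 tags).

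The Stat4 summits were 7.67 kb and 15.3 kb apart, and none of the 3 peaks was at a start of the gene. RefSeq lists a start at 51987148 and another at 52008240, and the summits lay 4.13, 11.8 and 27.1 kb downstream of the second. The promoter windows of both starts overlapped no peak. Of the 1178 protein-coding genes with an assigned peak, 17 (1.44%) had 3 or more.

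Stat3 had the only promoter peak of the 6. It lay on chromosome 11 at 100939486 to 100939728 with a fold enrichment of 5.21 (2.58 to 9.70, 8 tags over a background of 0.727 tags) and a -log10 q of 3.18. The peak overlapped the start of the assigned transcript, which is also the start in the RefSeq promoter table, and the summit was 5 bp upstream of it. The RefSeq gene table extends the gene farther, to 100939594, and by that model the summit was 49 bp inside the gene. The background here was the highest at any of the 6 peaks. A RefSeq long non-coding gene, Gm46295, overlaps the same position, so the assignment to Stat3 rests on the authors' annotation.

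The 188 bases upstream of the Stat3 start that lay under the peak are given here, since this was the only one of the 6 peaks that reached a promoter sequence of the RefSeq table. They run 5′ to 3′ on the minus strand of chr11:100939541-100939728 (GRCm38.p6), and capitals mark the summit and the 4 bases on each side of it.
Stat3: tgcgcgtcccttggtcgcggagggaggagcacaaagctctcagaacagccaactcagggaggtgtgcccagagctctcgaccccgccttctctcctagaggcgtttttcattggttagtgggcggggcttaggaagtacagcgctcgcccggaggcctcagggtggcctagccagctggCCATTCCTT
This stretch had a GC content of 62.2% and 11 CpG dinucleotides. It held no match to GGGAA (the core letters of Ikaros family sites), TTCNNNGAA (STAT) or TGANTCA (AP-1) on either strand.

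Stat5a and Stat5b, whose products are the main carriers of the interleukin-15 signal, had no assigned peak although they adjoin Stat3. The genes Stat5b, Stat5a and Stat3 follow each other over 159 kb of chromosome 11, separated by 346 and 1636 bp, and the single peak in this stretch was that at the Stat3 start. It lay 54.3 kb from Stat5a and 80.5 kb from Stat5b. Of protein-coding genes, 25.3% had a peak within 100 kb. In all, 18.4% of them lay nearer to a peak than Stat5a did, and 22.8% nearer than Stat5b.

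Of the target genes, Pim1 had a peak and Cish had none. The Pim1 peak had the lowest fold enrichment of the 6, 4.02 (1.68 to 9.05), with 4 tags and a -log10 q of 1.67. In the whole list 0.57% of peaks had a lower fold, and no peak had fewer tags. It lay on chromosome 17 at 29500643 to 29501057, classed as distal intergenic, 7.24 kb downstream of the assigned start. The summit was 4.68 kb past the end of the gene in the RefSeq table, and no protein-coding gene lay closer than Pim1, the next being Tmem217 at 18.1 kb.

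Cish was 266 kb from the nearest peak, a promoter peak of Hyal2 with 7.59-fold enrichment. Its promoter window was the only member window with the STAT letters. There were 2 such matches side by side, in the first 20 transcribed bases by the RefSeq start, on the plus strand of chr9:107296659-107296678 (GRCm38.p6), with the matches in capitals.
Cish: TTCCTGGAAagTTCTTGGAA
The sequence is shown because it places 2 copies of the STAT letters at a gene of the list that had no Aiolos peak. A match to these letters is a description and not evidence of binding.

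**Figure D2:**
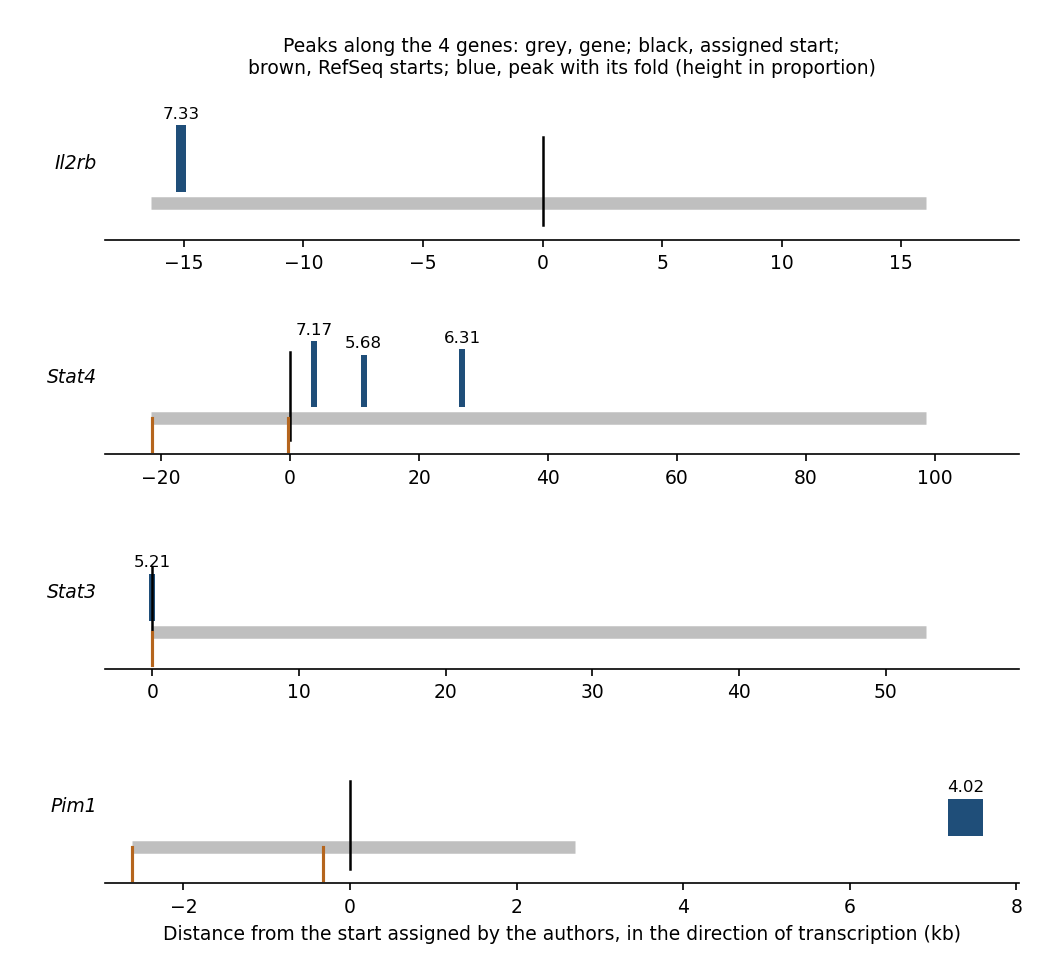
Positions of the 6 peaks (blue, height in proportion to fold, number above) along Il2rb, Stat4, Stat3 and Pim1, in kb from the start the authors assigned and in the direction of transcription; narrow peaks are widened to be visible. The Il2rb peak sits just inside the upstream end of the gene (grey), the 3 Stat4 peaks lie downstream of both RefSeq starts (brown), the Stat3 peak is at the start, and the Pim1 peak is past the end of the gene.

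Over the 6 peaks, most lay away from the assigned starts. Of the 6, 5 had their centre over 1000 bp from the assigned start, while 64.8% of all 1404 peaks lay within that distance. Stat4 alone supplied 3 of these peaks. The distance at Il2rb depended on the gene model, with the summit 1.23 kb from the upstream end of the RefSeq gene. By gene, 1 of the 10 had a promoter peak, against 3.79% of protein-coding genes. Of the 13 RefSeq promoter windows that matched 9 of the 10 genes, running from 250 bases before the start to 50 after it, 1 overlapped a peak, compared with 2.57% of all 32841 windows. Il2rb had no entry. Counted without the authors' assignment, 4 of 10 genes had a peak on the gene or within 10000 bp of it, against 8.43% of protein-coding genes, and these were Il2rb, Stat3, Stat4 and Pim1. The 10 genes were chosen with earlier results on this list known, so these shares are not a test.

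In strength, the 6 peaks had a median fold enrichment of 5.99, with a range of 4.02 to 7.33, and all 1404 peaks had a median of 6.44 with quartiles at 5.08 and 8.05. The Il2rb peak and the first Stat4 peak exceeded the median of the list, and none of the 6 reached its upper quartile. In tags at the summit the median was 8 in both sets. The 6 peaks had a median width of 417 bp, compared with 265.5 bp over the list, and 5 of the 6, all but the Stat3 peak, were wider than the median. Some folds were shared exactly by many peaks at this depth. The fold of the second Stat4 peak was held by 37 peaks of the list, itself included, and that of the Stat3 peak by 3.

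**Figure D3:**
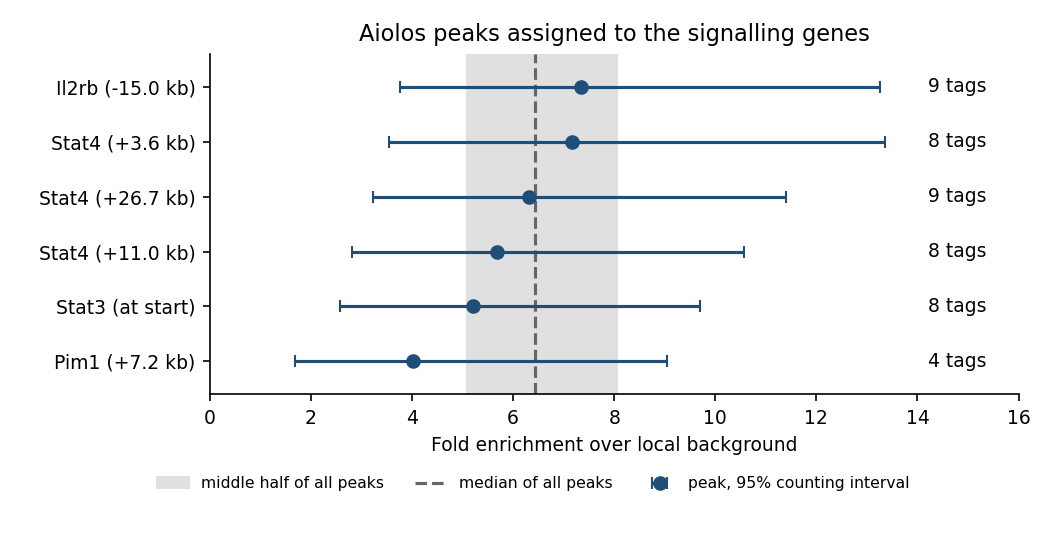
Fold enrichment of the 6 peaks, named by gene and by distance from the peak edge to the assigned start, with 95% exact Poisson counting intervals and the tags at the summit. The grey band runs from the lower to the upper quartile of all 1404 peaks and the dashed line is their median of 6.44; every interval crosses that line.

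Depth bounds what the absence of a peak can mean. Where the background was at its floor of 0.186 tags, the weakest peaks of the list had 4 tags and a fold of 4.22, and where it was between 1 and 2 tags the fewest were 8. Binding at Il2rg, Jak1, Jak3, Stat5a, Stat5b or Cish that gave fewer tags would not have been detectable at this depth.

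The promoter windows of the 10 genes were also searched for the letters of the same motifs on both strands, and GGGAA can overlap TTCNNNGAA. GGGAA was present in a window of 6 of the 9 genes with an entry (Stat4, Cish, Stat5a, Stat5b, Pim1 and Il2rg). Of all 27018 genes with an entry, 65.5% had it. By window, GGGAA was present in 6 of 13, against 62.7% of all 32841 windows. TTCNNNGAA was present in 1 of 9, Cish, against 9.55% of all genes, and TGANTCA in 0 of 9 against 8.98%. The base content of the windows varied widely, with a GC content of 82.7% at a Stat5b start and 46.0% at the second Stat4 start. The Stat3 window had a GC content of 60.7% and 15 CpG dinucleotides. A window each of Jak1 (64.7% and 29), Stat5a (67.7% and 27), Stat5b (82.7% and 50) and Pim1 (81.3% and 42) was richer in both and overlapped no peak. Windows that overlapped a peak anywhere in the genome had a median of 60.3% and 22, and all windows a median of 52.7% and 7.

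The rest of the signalling path was described through 7 further lists with 87 genes, of which 9 had an assigned peak (10.3%, against the 5.38% of all protein-coding genes). These lists too were chosen with earlier results known, so the share is not a test. All 9 were inhibitors, members of the PI3K or MAP kinase branch, or targets. No peak was assigned to 8 other cytokines and receptors of the interleukin-15 and common gamma chain family or 11 other receptors that use JAKs. None was assigned to 5 other JAKs and STATs either, which makes 0 of 24, beside the 5.38% of all protein-coding genes. The receptor and STAT genes with peaks, Il2rb, Stat3 and Stat4, were among the 10 and so outside these lists. The 0 of 24 depends on this division and is not read as a difference between levels of the path. Among inhibitors of the path 2 of 17 genes had a peak, in the PI3K, AKT and mTOR branch 3 of 19, in the adaptor, RAS and MAP kinase branch 1 of 13, and among targets of STAT5 and interleukin-15 3 of 14.

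The inhibitors with peaks act on the STATs and JAKs directly. Pias4, which encodes a SUMO ligase named as an inhibitor of activated STATs, had the highest fold among the assigned peaks of these lists, at a promoter peak on chromosome 10 at 81167940 to 81168218 with a fold enrichment of 11.4 (6.88 to 17.8, 17 tags). Ptpn2, a phosphatase that removes phosphate from JAK1, JAK3 and STATs, had a promoter peak of 5.63-fold (2.58 to 11.3, 6 tags) on chromosome 18. No Socs gene had an assigned peak, which is the usual case, since 5.38% of all protein-coding genes had one.

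In the PI3K branch, Pik3r1, the regulatory subunit p85 alpha, had 3 assigned peaks. The strongest, 8.43-fold (4.31 to 15.3, 9 tags), was a promoter peak on chromosome 13 at 101694927 to 101695232, with its edge 327 bp upstream of the assigned start. Another of 7.24-fold was intronic, and the last, of 5.90-fold, was 326 kb upstream in intergenic sequence. Inpp5d, the phosphatase SHIP1 that opposes PI3K, had 2 intronic peaks, of 7.24-fold (3.58 to 13.5) and 5.06-fold (2.21 to 10.7). Tsc1, which restrains mTOR, had a promoter peak of 5.05-fold (2.41 to 9.73, 7 tags). In the MAP kinase branch Map2k2, the kinase MEK2, had a peak of its promoter, at 81105595 to 81105827 on chromosome 10, with 7.39-fold enrichment (3.66 to 13.8, 8 tags).

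Among the targets, Bcl2l1, which encodes the survival protein BCL-XL, had a promoter peak of 9.53-fold (5.28 to 16.1, 12 tags). Ccnd3, which encodes cyclin D3, had an intronic peak of 9.47-fold (5.12 to 16.3, 11 tags), 28.7 kb upstream of the assigned start. Gzmb, the granzyme B gene of the cytotoxic granule, had a peak over its start of 6.17-fold (3.68 to 9.79), which held 16 tags over a background of 1.76 tags, and another of 6.44-fold 21.9 kb upstream.

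The promoter sequences under the Map2k2 and Gzmb peaks are shown because each holds 1 of the searched motifs, in capitals: GGGAA on the plus strand at Map2k2, chr10:81105665-81105827, and TGANTCA at Gzmb, minus strand of chr14:56262335-56262584. Both run 5′ to 3′ (GRCm38.p6). The Gzmb stretch ends at the base before the RefSeq start and the Map2k2 stretch at the peak edge, farther upstream. The Tsc1 promoter sequence under its peak, not printed, held none of the 3 motifs. No such stretch was extracted for the promoter peaks of Pias4, Ptpn2, Bcl2l1 and Pik3r1. Of all promoter windows, 62.7% held GGGAA and 7.81% held TGANTCA. In the bases before the start alone the shares were 56.2% and 6.75%. Both printed stretches are shorter than a whole window, that of Map2k2 the more so, and a match alone says little.
Map2k2: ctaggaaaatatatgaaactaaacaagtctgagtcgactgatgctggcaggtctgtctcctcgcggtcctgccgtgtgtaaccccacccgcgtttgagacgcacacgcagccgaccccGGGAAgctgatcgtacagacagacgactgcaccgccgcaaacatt
Gzmb: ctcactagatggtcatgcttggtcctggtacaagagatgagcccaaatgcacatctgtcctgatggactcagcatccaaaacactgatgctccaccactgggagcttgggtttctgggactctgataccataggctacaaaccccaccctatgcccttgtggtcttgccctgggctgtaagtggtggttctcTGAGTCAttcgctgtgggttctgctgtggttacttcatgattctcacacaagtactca
Neither motif was at a summit. The Map2k2 summit, at 81105679 and 236 bp upstream of its start, lay near the 5′ end of the printed stretch, and the motif nearer the 3′ end. The Gzmb summit lay 196 bp downstream of its RefSeq start, outside the printed stretch.

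The authors' assignment left out some peaks at genes of the path. Without regard to it, 13 of the 87 genes (14.9%) had a peak on the gene or within 10000 bp, against the 8.43% of all protein-coding genes. This share is likewise not a test. The 4 genes added in this way were named after their values were seen. Bcl2, a survival gene, overlapped a peak on chromosome 1 at 106612762 to 106613159, which the authors classed as a Bcl2 intron but assigned to Mir3473f, 66.1 kb away, at 5.90-fold (2.70 to 11.9, 6 tags). Mcl1, a survival gene on which NK cells depend, lay 5.72 kb from an intergenic peak of 8.05-fold (4.12 to 14.6, 9 tags) that was assigned to Adamtsl4. Stat6 lay 6.16 kb from a peak of 5.99-fold (3.32 to 10.1) at the Nemp1 start. Map2k1, the kinase MEK1, lay 6.20 kb from a peak of 12.2-fold (7.14 to 19.6, 15 tags) at the Snapc5 start, above the fold of Pias4 with an overlapping interval. Of these, only the Bcl2 peak overlapped the gene itself.

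**Figure D4:**
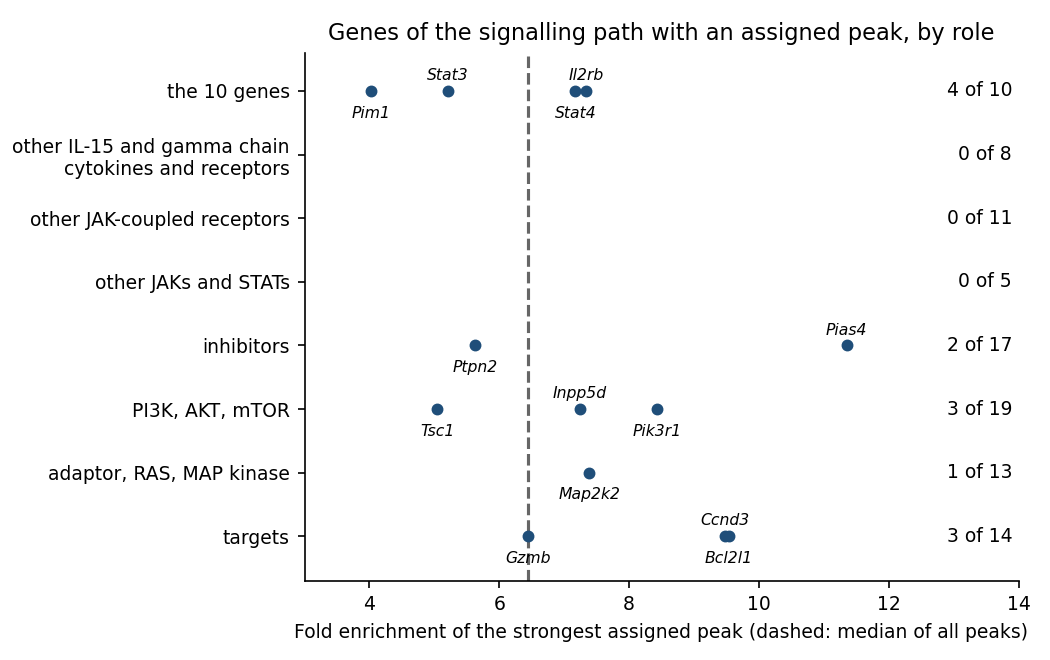
Fold enrichment of the strongest assigned peak of each gene of the signalling path that had one, by role, with the number of genes with a peak out of those listed at the right and the median of all peaks dashed. The 3 rows for other receptors, JAKs and STATs are empty, since Il2rb, Stat3 and Stat4, which had peaks, stand in the row of the 10 genes. The highest values among assigned peaks are Pias4 at 11.4, Bcl2l1 at 9.53 and Ccnd3 at 9.47.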

How the data were processed

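CUT&RUN was done on cultured mouse spleen NK cells, with 1 Aiolos antibody library and 1 library without primary antibody. Only the peak list was used, and read depth is not given in it. The submitters' processing notes list mm10 as the build and SAMtools, Picard, Bowtie2 and MACS2 as tools, with no order or role. The q cutoff and the control are not given in the sources. Per the file headers, the authors deposited for each peak a fold enrichment (a ratio over local background), the -log10 p-value and q-value, and a score, which is 10 times the -log10 q without decimals.

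Pileup and background were solved from fold and p (fold as pileup plus 1 over background plus 1, p as the upper Poisson tail beyond the pileup), and the -log10 p was met to within 1.75e-05 over 1404 peaks, after a check on simulated data. Intervals treat the background as fixed, and duplicates of 1 molecule would make them too narrow. Promoter peaks have their centre within 1000 bp of the assigned start. Coordinates are 1-based. Genes, promoter windows and sequences are RefSeq (GRCm38.p6, the assembly of mm10), and all 97 listed genes matched by gene identifier. Motif matches and base content cover promoter windows only, since no genome sequence was used. Python 3.11.15, pandas 2.3.3 and scipy 1.17.1 were used.

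No test was made, as there is 1 library per group. Members and gene lists were chosen with earlier results of these data known. Every member is described, and every other listed gene with an assigned peak is named. A result on a further gene is not reported here. Alternatives were stricter peak sets, other distances, assignment by position, merging, chromosomes and motif windows.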

Additional observations from a re-analysis of the deposited data

How the results depend on the processing

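Of 24 alternative values, 19 stayed within 1.5 times the main count or inside the counting interval, and 5 did not. The count of genes with a peak among the 10 was 4; it was 2 in the 727 peaks whose -log10 q was the median or higher and 2 in the 687 above the median fold, where Il2rb and Stat4 were left, and 1 with promoter peaks only (Stat3), each by construction of a smaller peak set. The 6 genes without a peak lay a median of 285 kb from the nearest peak, and 680 kb in the stricter set by -log10 q, an alternative chosen after seeing the data. With the bases before the start alone, 0 of 9 genes held the STAT letters in place of 1, because both Cish matches lie past the start. Depth limits single peaks: all 6 rested on 4 to 9 tags, and 64.6% of the list on fewer than 10. No paired analysis was possible because neither library has a replicate.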

Other observations

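The following genes were chosen with their values known. The interferon receptor genes Ifnar1 and Ifnar2 and the interleukin-10 receptor gene Il10rb lie together on chromosome 16. None had an assigned peak, but a peak of 6.57-fold assigned to A930006K02Rik, at 91445410 to 91445700, lay 39.3 kb from Ifnar1, 39.8 kb from Ifnar2 and 19.6 kb from Il10rb. Stat2, a transducer of interferon signals, was 10.5 kb from a promoter peak of 10.1-fold at Pan2, and Il12rb1, a chain of the interleukin-12 receptor, was 10.8 kb from a promoter peak of 8.63-fold at Mast3. Of the 24 other receptor, JAK and STAT genes, 14 had a peak within 100 kb, against 25.3% of all protein-coding genes, and 1, Stat6, within 10 kb, against 8.43%. The Map2k2 and Pias4 peaks are neighbours, with summits 62.4 kb apart on chromosome 10.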
